A study of Mus musculus with 15 samples.

Results

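Chemokines are small secreted proteins that direct the migration of leukocytes and other cells, and 10 genes encoding them were followed in quadriceps muscle: Ccl2, Ccl5, Ccl6, Ccl8, Ccl9, Ccl11, Cxcl1, Cxcl12, Cxcl13 and Cxcl14. The genes were chosen by name, each was matched to 1 of the 39179 gene identifiers counted in every mouse, and they are 10 of the 40 chemokine ligand genes that could be matched. RNA-seq was performed on 15 homozygous Mrps5 V338Y or wild-type C57BL/6 mice. The 3 mo groups held 4 mice of each genotype, and the 19 mo groups 3 wild-type and 4 mutant animals. V338Y is a knock-in amino acid exchange in the mitochondrial ribosomal protein MrpS5, which lowers the accuracy of mitochondrial translation, and is carried by all cells of the mutant mice. The labels give no other allele or treatment.

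Before the results, 3 features of the mice must be stated. First, Xist, expressed from the inactive X chromosome of females, was at most 0.575 CPM (counts scaled to a library of 1000000 reads after TMM normalization) in the 3 mo mice and at least 506 CPM in the 19 mo mice. The Y-linked Ddx3y was at least 163 CPM at 3 mo and at most 0.0827 CPM at 19 mo. The transcripts of all 8 mice at 3 mo were therefore those of males and of all 7 mice at 19 mo those of females, whereas the methods describe the young animals as female. Age and sex cannot be told apart in any difference between 3 mo and 19 mo below, while both genotypes of an age shared a sex. Second, V338Y mouse 5 at 19 mo stood apart in neutrophil transcripts, with 13 neutrophil markers summing to 698 CPM against 5.11 to 41.0 CPM in the other mice. Counts of calls in V338Y mice are also given without it where they changed. The third concerns Mrps5 itself, which ranged from 21.2 to 27.5 CPM at 3 mo and from 15 to 19.3 CPM at 19 mo. Its level does not check the genotype, as the exchange alters the protein and not the gene count. The 10 muscle fiber markers summed to 263114 to 321558 CPM in the 3 mo mice, and to 230139 to 283735 CPM in wild-type and 166606 to 263113 CPM in V338Y mice at 19 mo. With age 3 of them fell and 1 rose in wild-type mice, and 4 fell and 0 rose in V338Y mice (5 fell without mouse 5). The part of this in the age differences below was not tested. The depth ran from 8250653 to 18968132 counts per mouse.

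Chemokines bind G protein-coupled receptors on the cells they attract, and are named CC or CXC by the spacing of their first cysteines. Some, such as Cxcl12, are made constantly by stromal and vessel cells and hold progenitors and leukocytes in place. Others, such as Ccl2 and Cxcl1, are induced by cytokines through NF-kB. In muscle they are best known from injury, where they recruit neutrophils and then monocytes. In whole muscle, fewer cells of a type and less RNA per cell cannot be told apart.

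Ccl8, Cxcl12 and Cxcl13 were higher at 19 mo in both genotypes and Cxcl14 lower in wild-type mice. The bases before the start sites of these members are shown. Ccl2, Ccl6 and Ccl11 also passed the test for age, each in 1 genotype. Ccl2 was not tested for age in V338Y mice, and a difference between the age effects of the genotypes passed for none of them. Ccl2 and Ccl11 had no matched promoter, and the bases of Ccl6 are not shown. RefSeq promoters (GRCm38.p6) were matched for 7 of the 10 members. Each window holds the 250 bases before the annotated start, 5′ to 3′ on the strand of the gene. Capitals mark the letters of 5 motifs searched on both strands, each spelled out where its matches are given: the TATA box, the GC box, the core of a hypoxia-inducible factor (HIF) element, a STAT site and the first 9 letters of an NF-kB site. Cxcl12 lies at chr6:117168285-117168534 (plus strand), Ccl8 at chr11:82114935-82115184 (plus), Cxcl13 at chr5:95956689-95956938 (plus) and Cxcl14 at chr13:56296552-56296801 (minus).
Cxcl12: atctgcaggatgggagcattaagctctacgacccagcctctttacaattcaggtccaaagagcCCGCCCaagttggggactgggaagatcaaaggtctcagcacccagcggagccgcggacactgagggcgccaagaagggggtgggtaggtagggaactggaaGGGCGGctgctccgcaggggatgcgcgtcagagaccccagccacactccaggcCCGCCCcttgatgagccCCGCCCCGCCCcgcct
Ccl8: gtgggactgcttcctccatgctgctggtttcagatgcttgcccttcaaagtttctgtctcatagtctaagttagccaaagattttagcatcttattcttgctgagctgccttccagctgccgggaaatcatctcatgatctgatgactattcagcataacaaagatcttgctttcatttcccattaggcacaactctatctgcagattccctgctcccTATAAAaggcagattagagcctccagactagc
Cxcl13: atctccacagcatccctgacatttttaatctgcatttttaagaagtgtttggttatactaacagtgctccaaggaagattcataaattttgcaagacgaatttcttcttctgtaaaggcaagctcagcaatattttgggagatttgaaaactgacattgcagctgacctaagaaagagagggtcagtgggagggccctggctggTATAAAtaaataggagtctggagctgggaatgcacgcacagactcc
Cxcl14: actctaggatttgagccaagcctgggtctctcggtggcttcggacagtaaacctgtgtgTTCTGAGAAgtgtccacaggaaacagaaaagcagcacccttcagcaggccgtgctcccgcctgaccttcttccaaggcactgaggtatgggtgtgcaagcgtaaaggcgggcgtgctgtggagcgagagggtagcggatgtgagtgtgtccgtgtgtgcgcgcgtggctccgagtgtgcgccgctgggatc
The Cxcl12 window held 5 GC boxes (GGGCGG), of which 2 share a base, and no TATA box, and 64.4% of its bases were G or C. The GC box was present in 32.7% of 32851 mouse promoters of this length. The Ccl8 and Cxcl13 windows each held 1 TATA box (TATAAA), from base -32 to -27 and from -46 to -41 before the start, a motif present in 12.4% of the promoters. Their G and C content was 44.8% and 42.0%, against a median of 52.4% over all promoters. The Cxcl14 window, with 59.6% G and C, held 1 match to the STAT site TTCNNNGAA, which 7.02% of promoters hold. Of the other matched members, Cxcl1 held 3 matches to the NF-kB letters GGGNNNTTC, 2 of them overlapping, and Ccl9 held 1, and 11.8% of promoters hold any. The Ccl9 window also had 3 TATA boxes, 2 of them overlapping. The HIF core ACGTG, in 16.6% of promoters, was found 1 time in the Cxcl1 window. None of the 5 motifs was found in the Ccl6 window.

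To compare levels between the genes, CPM were divided by the exon length of each gene in kb. This length joins the exons of all annotated transcripts, from 511 bases for Ccl8 to 8176 bases for Cxcl12. Which transcripts were expressed was not measured, and the order below depends on these lengths. Before the division, Cxcl12 had the highest mean in 3 mo wild-type mice, 43.5 CPM, with Cxcl14 at 31.3 CPM. In 3 mo wild-type mice, Cxcl14 was highest at 17.1 ± 4.27 CPM per kb (SD, n = 4), followed by Ccl11 at 15.7 ± 2.15, Ccl6 at 11.5 ± 4.72, Cxcl12 at 5.32 ± 0.646 and Ccl9 at 3.5 ± 1.15 CPM per kb. Ccl8 (1.42 ± 0.834 CPM per kb) and Cxcl13 (0.879 ± 0.590 CPM per kb) came next, and each of these 7 genes overlapped its neighbour in the order. Below them, and separate from Cxcl13 in every mouse, were Ccl2 (0.135 ± 0.0420 CPM per kb), Cxcl1 (0.0425 ± 0.0401) and Ccl5 (0.0410 ± 0.0485 CPM per kb). At 3 mo the V338Y order was led by Ccl11 (16.4 ± 0.655 CPM per kb, n = 4) and Cxcl14 (16.2 ± 2.14), which overlapped, and Ccl6 (8.42 ± 2.90) was below Cxcl14 in every mouse. At 19 mo Ccl6 led in both genotypes. In wild-type mice the 7 highest genes, from Ccl6 at 12.8 ± 2.4 to Ccl9 at 4.31 ± 0.805 CPM per kb (n = 3), each overlapped the next. In V338Y mice the 5 highest ran from Ccl6 at 15.9 ± 3.44 to Ccl11 at 11.7 ± 1.75 CPM per kb (n = 4), and Ccl9 at 4.69 ± 1.43 CPM per kb was below Ccl11 in every mouse.

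**Figure D1:**
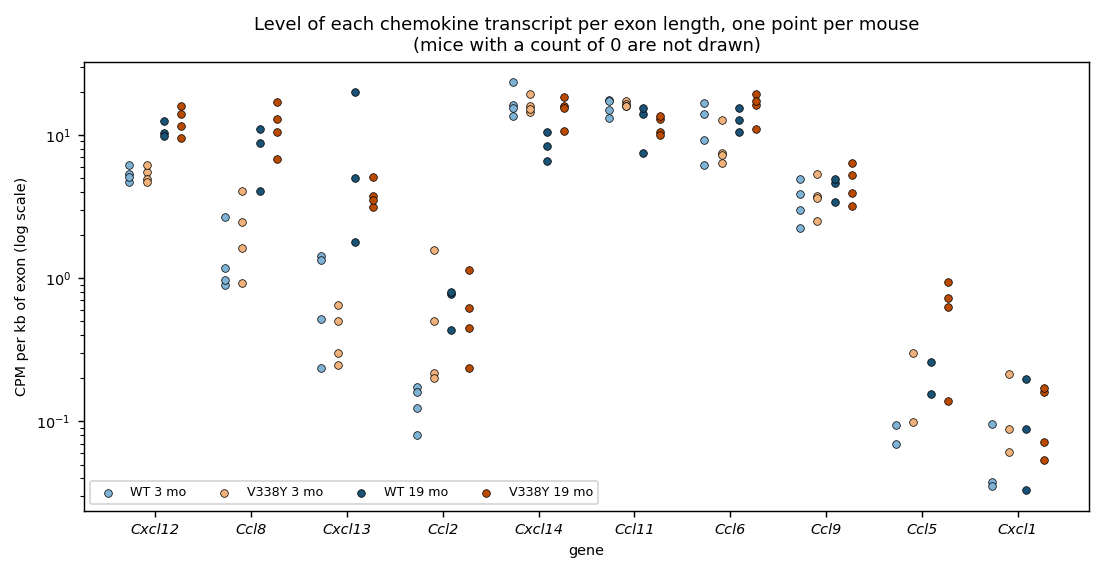
The level of each of the 10 chemokine transcripts in CPM per kb of exon on a log axis, 1 point per mouse, colored by group (WT, wild-type). Cxcl14, Ccl11 and Ccl6 lie between 6.20 and 23.3 CPM per kb in all mice, Cxcl12 lies in this range in all 19 mo mice and Ccl8 in all but wild-type mouse 4 (4.06 CPM per kb), and Ccl5 and Cxcl1 reach at most 0.938 CPM per kb.

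The first question was which chemokine transcripts changed between 3 and 19 mo. In wild-type mice Cxcl12, Ccl8, Cxcl13 and Ccl2 rose and Cxcl14 fell, 5 of the 8 members tested. In V338Y mice Cxcl12, Ccl8, Cxcl13 and Ccl6 rose and Ccl11 fell, 5 of the 7 tested (edgeR quasi-likelihood test, Benjamini-Hochberg adjusted p under 0.05). These shares stand against 18.3% of all 13657 tested genes called up and 17.8% called down in wild-type mice, and 24.4% up and 22.5% down of 13868 genes in V338Y mice. In wild-type mice 4 members were higher and 1 lower in every 19 mo mouse than in every 3 mo mouse, where 43.4% of all tested genes did not overlap. The same held for 3 higher and 1 lower member in V338Y mice, against 42.2% of genes. The tested members had a median log2 fold change of 0.67 (wild-type) and 0.91 (V338Y), and over all tested genes 0.019 and 0.072. Genes were tested if at least 10 counts were reached in 50% of the mice of a compared group. Ccl2 and Ccl8 in wild-type and Cxcl13 in V338Y mice met this only through their 19 mo group, and could enter only by being high there. Ccl8 and Cxcl13 belong to the inflammation genes that the study displayed as up-regulated in these mice, so their direction is not independent evidence. The plots of CPM by mouse and of fitted differences show the members side by side.

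**Figure D2:**
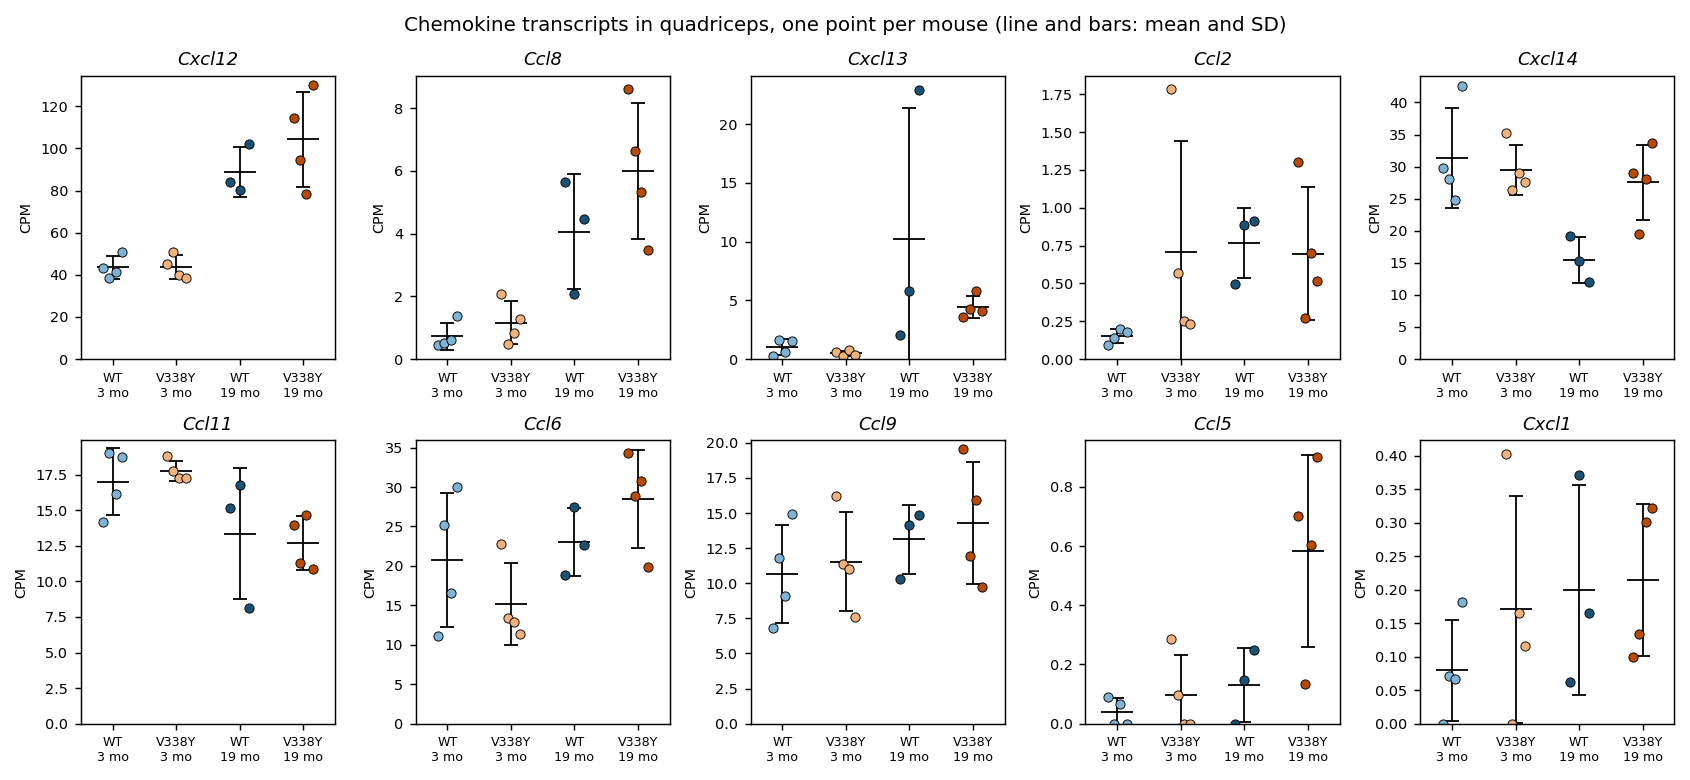
CPM of the 10 chemokine transcripts in each mouse (points) of the 4 groups (WT, wild-type), with the group mean (line) and SD (bars, cut at 0 on the linear axes). The Cxcl12 points at 19 mo, from 78.3 to 129.9 CPM, all lie above those at 3 mo, which reach 50.8 CPM, and Cxcl14 is low in the 3 wild-type mice at 19 mo.

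**Figure D3:**
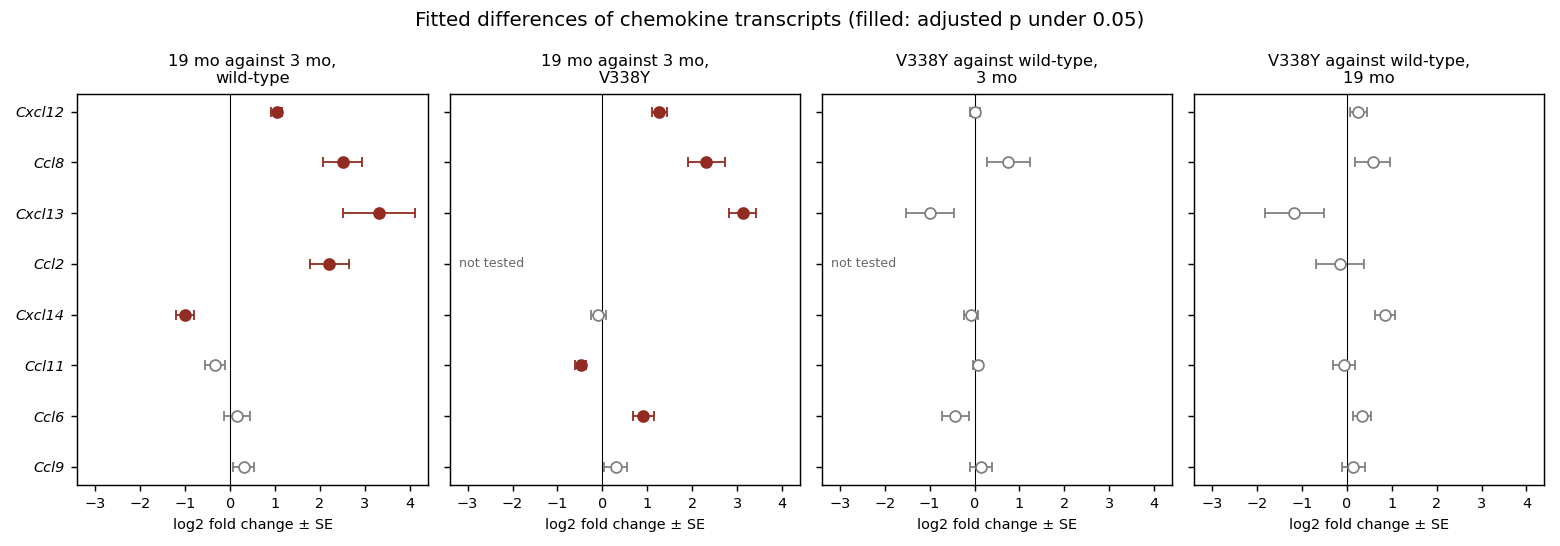
Fitted log2 fold changes of the 8 members tested in at least 1 comparison, with SE bars, for age in each genotype and for genotype at each age. Filled points passed an adjusted p of 0.05 and are found only in the 2 age panels, where Ccl8, Cxcl12 and Cxcl13 lie to the right of 0 in both genotypes.

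Cxcl12, the ligand of Cxcr4 and a retention signal for stem cells and leukocytes, was the most counted member. It was at 43.4, 38.3, 41.5 and 50.8 CPM in the wild-type mice at 3 mo and 84.1, 80.2 and 102 CPM in those at 19 mo. The V338Y mice had 45.3, 50.7, 40.0 and 38.6 CPM at 3 mo and 115, 94.7, 78.3 and 129.9 CPM at 19 mo. Within each genotype, the ages did not overlap. The increase was 2.04-fold in wild-type (log2 fold change 1.03, SE 0.12, edgeR adjusted p = 4.86e-04) and 2.41-fold in V338Y mice (log2 fold change 1.27, SE 0.16, edgeR adjusted p = 3.23e-04). With each mouse left out in turn the log2 fold change stayed between 0.91 and 1.11 in wild-type and between 1.16 and 1.38 in V338Y mice. The difference between the 2 age effects, 0.23 on the log2 scale (SE 0.22), did not pass (edgeR adjusted p = 0.754). The genotypes differed by a log2 fold change of 0.011 at 3 mo and 0.26 at 19 mo (edgeR adjusted p = 0.985 and 0.686).

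Stromal and vessel cells are known sources of Cxcl12, and their marker lists are given beside it. The summed level of 10 endothelial markers was 219 to 275 CPM in the 3 mo mice and 318 to 507 CPM in the 19 mo mice. Of these markers, 5 rose in wild-type and 6 in mutant animals (5 without mouse 5), and 0 fell. Of 8 pericyte and smooth muscle markers 6 rose in each genotype. Of 12 fibroblast markers 1 rose and 3 fell in wild-type mice, and 0 rose and 3 fell in V338Y mice, or 2 rose and 2 fell without mouse 5. With all mice the fallen ones were the collagen genes Col1a1, Col1a2 and Col3a1 in both genotypes. No marker of these 3 lists was at 0 in all mice, and their part in the rise of Cxcl12 was not tested.

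Ccl8, a monocyte chemoattractant protein, was scarce at 3 mo, at 0.456, 0.497, 0.597 and 1.36 CPM in wild-type and 2.07, 0.477, 0.827 and 1.27 CPM in V338Y mice. At 19 mo the wild-type mice had 5.66, 2.07 and 4.47 CPM and the V338Y mice 8.62, 6.64, 5.32 and 3.47 CPM. Every 19 mo mouse was above every 3 mo mouse of its genotype. The log2 fold change with age was 2.50 in wild-type mice (SE 0.44, edgeR adjusted p = 0.00288) and 2.31 in V338Y mice (SE 0.41, edgeR adjusted p = 0.00173), or 5.67-fold and 4.97-fold. The 3 mo wild-type counts behind this were 5 to 15 reads per mouse. V338Y mice had the higher mean at both ages, with log2 fold changes of 0.75 at 3 mo and 0.58 at 19 mo, but the genotypes overlapped and neither passed (edgeR adjusted p = 0.659 and 0.675). At 3 mo Ccl8 met the count filter only in the V338Y group.

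Ccl2, the main attractant of Ccr2-bearing monocytes, lies on chromosome 11 (82035571 to 82037453, GRCm38) in the region of Ccl11 and Ccl8. It had 1 to 3 counts in each wild-type mouse at 3 mo and 8 to 12 counts at 19 mo. In CPM these were 0.0912, 0.142, 0.199 and 0.181 against 0.497, 0.889 and 0.910. The 2 ages did not overlap, and the log2 fold change was 2.21 (SE 0.44, edgeR adjusted p = 0.00531). The summed counts, 31 at 19 mo and 8 at 3 mo, gave a ratio per effective library of 4.76 with a 95% exact interval of 2.14 to 12, which covers counting error only. In V338Y mice Ccl2 missed the filter and was not tested, with 2 to 31 counts at 3 mo and 4 to 13 at 19 mo. Their levels were 1.78, 0.572, 0.248 and 0.231 CPM at 3 mo and 1.30, 0.268, 0.703 and 0.514 CPM at 19 mo, so the ages overlapped. The age effect in V338Y mice was lower than that in wild-type mice by 2.42 on the log2 scale (SE 0.95), with an unadjusted p of 0.0227 that was lost after adjustment (edgeR adjusted p = 0.474). It was -1.29 without V338Y mouse 1 at 3 mo, which held 31 counts, and Ccl2 entered this comparison only through the 19 mo wild-type mice.

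Cxcl13 draws B cells through Cxcr5 and is known from lymphoid follicles. It was at 0.274, 1.63, 0.597 and 1.54 CPM in wild-type mice at 3 mo and at 2.05, 5.78 and 22.9 CPM at 19 mo. The V338Y mice had 0.575, 0.286, 0.745 and 0.346 CPM at 3 mo and 3.61, 4.29, 5.82 and 4.05 CPM at 19 mo. The ages did not overlap in either genotype, and wild-type mouse 5 at 19 mo was far above all others. Cxcl13 rose by a log2 fold change of 3.31 in wild-type (SE 0.80, edgeR adjusted p = 0.0118) and 3.12 in V338Y mice (SE 0.31, edgeR adjusted p = 1.21e-04). Without wild-type mouse 5 the wild-type value was 1.92 and remained past the threshold. The genotype difference at 19 mo was -1.17 (SE 0.66, edgeR adjusted p = 0.617) and turned to 0.22 without that mouse.

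Some B and plasma cell transcripts were higher at 19 mo, as Cxcl13 was, while the summed list overlapped between ages. Igkc, the kappa light chain constant region, was at most 1.21 CPM in the 3 mo mice, at 4.48, 9.26 and 70.6 CPM in the 19 mo wild-type mice and at 5.61, 15.8, 23.7 and 47.4 CPM in the 19 mo V338Y mice. Wild-type mouse 5 was the highest in both Cxcl13 and Igkc. The 11 B and plasma cell markers together summed to 39.7 to 245 CPM at 3 mo and 47.7 to 282 CPM at 19 mo. The ages overlapped within each genotype too. Ighm alone gave most of the sum in the 3 mo V338Y mice, up to 239 CPM. Of these markers 2 of 4 tested rose in wild-type and 6 of 9 in V338Y mice (5 of 8 without mouse 5), 0 fell, and none was at 0 in all mice. By sign alone, 8 of the 9 were higher and 1 lower in V338Y mice. Only Ighm and Sdc1 met the count filter in a 3 mo group, so the other tested markers could enter only by being high at 19 mo. The part of these markers in the level of Cxcl13 was not tested.

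Cxcl14, an abundant CXC chemokine of stroma and epithelia, fell with age in wild-type mice. Wild-type mice had 29.7, 28.1, 24.8 and 42.6 CPM at 3 mo and 19.2, 15.3 and 12 CPM at 19 mo. V338Y mice had 35.2, 26.3, 29.0 and 27.7 CPM at 3 mo and 29.0, 19.4, 28.1 and 33.6 CPM at 19 mo. The ages separated in wild-type mice and overlapped in V338Y mice. The log2 fold change with age was -1.0 in wild-type (SE 0.21, edgeR adjusted p = 0.00639) and -0.089 in V338Y mice (SE 0.17, edgeR adjusted p = 0.675). The difference of the 2 effects was 0.90 (SE 0.29), with an unadjusted p of 0.00634 and an edgeR adjusted p of 0.405 over 14128 genes. At 19 mo Cxcl14 was higher in all 4 V338Y than in all 3 wild-type mice, the narrowest gap being 19.4 against 19.2 CPM. That comparison gave a log2 fold change of 0.86 (SE 0.22, edgeR adjusted p = 0.504). No pairing of mice is stated in the labels or the paper. With a replicate block by mouse number the log2 fold change was 1.02 and just passed (edgeR adjusted p = 0.0496). This fit gave no weight to V338Y mouse 3, which had no wild-type mouse of its number. Mouse 3 had the lowest V338Y value at 19 mo, 19.4 CPM. The 9 adipocyte markers were all lower at 19 mo in wild-type mice (2 fell) and all higher in V338Y mice (4 rose). Their interaction passed for 0 by edgeR and 1 by DESeq2, with 6 at an unadjusted p under 0.05. They summed to 418 to 1607 CPM in wild-type and 325 to 828 CPM in V338Y mice at 3 mo, and to 240 to 527 CPM in wild-type and 285 to 1469 CPM in V338Y mice at 19 mo. Between the genotypes at 19 mo all 9 were higher in V338Y mice, with 0 of them past the test by edgeR or DESeq2, 3 at an unadjusted p under 0.05, and none at 0 in all mice. Fibroblast markers summed to 1200 to 1611 and 942 to 2061 CPM at 19 mo. The part of these cells in the Cxcl14 values was not tested.

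Ccl11, or eotaxin, attracts eosinophils through Ccr3. Its levels were 14.1, 19.0, 16.1 and 18.8 CPM at 3 mo and 15.2, 16.7 and 8.11 CPM at 19 mo in wild-type mice. In V338Y mice they were 18.8, 17.7, 17.3 and 17.3 CPM at 3 mo and 13.9, 11.3, 14.7 and 10.9 CPM at 19 mo. Every old V338Y mouse was below every young one, while the wild-type ages overlapped. Ccl11 fell in V338Y mice (log2 fold change -0.48, SE 0.12, edgeR adjusted p = 0.00976) while the wild-type value of -0.34 did not pass (SE 0.22, edgeR adjusted p = 0.254). The 2 age effects differed by -0.15 (SE 0.26, edgeR adjusted p = 0.885). Ccr3, its receptor, had 0 to 6 counts per mouse at 3 mo and 5 to 33 at 19 mo. It rose in V338Y mice (log2 fold change 3.42, SE 0.82, edgeR adjusted p = 0.00779), where it was tested only through its 19 mo group, and was not tested in wild-type mice. Without V338Y mouse 2 at 19 mo the value was 2.80. The summed V338Y counts of 72 and 7 gave a ratio of 9.92 (95% exact interval 4.58 to 25.5, counting error only). Of 9 mast cell and eosinophil markers, 6 of 6 tested rose in wild-type and 5 of 6 in V338Y mice (5 of 5 without mouse 5). Only 5 of the 9 met the count filter in a 3 mo group. The eosinophil genes Siglecf and Epx met it in no group, and Prg2 in no 3 mo group. The calls of this list are therefore not a measure of eosinophils alone. The 9 markers summed to 7.70 to 16.2 CPM in the 3 mo mice and 29.5 to 46.9 CPM in the 19 mo mice, and their part in these values was not tested.

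Ccl6 and Ccl9 are CC chemokines of myeloid cells that lie next to each other on chromosome 11 (83587882 to 83593087 and 83572919 to 83578636). They are related in sequence. How many reads match both was not measured, and the 2 values may not be fully separate. Ccl6 was at 11.1, 25.2, 16.6 and 30.0 CPM in wild-type mice at 3 mo and at 18.9, 27.5 and 22.7 CPM at 19 mo. In V338Y mice it was at 22.8, 13.3, 12.9 and 11.4 CPM at 3 mo and at 34.4, 28.9, 30.8 and 19.9 CPM at 19 mo. In V338Y mice 3 of the 4 old mice were above all young ones, and in wild-type mice the ages were interleaved. Ccl6 rose in V338Y mice (log2 fold change 0.91, SE 0.23, edgeR adjusted p = 0.0107), and in wild-type mice had a log2 fold change of 0.15 (SE 0.29, edgeR adjusted p = 0.705). The difference of the 2 age effects was 0.74 (SE 0.41, edgeR adjusted p = 0.580). Ccl9 ranged from 6.84 to 16.2 CPM at 3 mo and from 9.71 to 19.5 CPM at 19 mo. Its log2 fold change with age was 0.30 in both genotypes (edgeR adjusted p = 0.358 and 0.363), and the groups overlapped in each comparison.

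The 13 macrophage markers summed to 248 to 436 CPM at 3 mo and 357 to 531 CPM at 19 mo, and none was at 0 in all mice. Of them 5 rose with age in wild-type and 6 in V338Y mice, with 0 fallen, and 9 rose in V338Y mice when mouse 5 at 19 mo was left out. Their part in the values of Ccl6, Ccl8 and Ccl9 was not tested.

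Ccl5 and Cxcl1 were near the limit of detection and were tested in no comparison. Ccl5, which draws T cells, had 0 to 1 counts in wild-type mice at 3 mo, 0 to 5 in V338Y mice at 3 mo, 0 to 3 in wild-type mice at 19 mo and 2, 6, 7 or 14 counts in V338Y mice at 19 mo. In CPM the last group had 0.701, 0.134, 0.602 and 0.900, and all other mice were at most 0.287. The 14 T and NK cell markers summed to 5.31, 1.27, 2.41 and 6.30 CPM in the same 4 mice and to 0.692 to 3.31 CPM in the others, and their part in the Ccl5 level was not tested. A count of 0 allowed up to 3 counts, or 0.186 to 0.346 CPM in the 5 mice that had none. Cxcl1, a neutrophil attractant acting through Cxcr2, had 0 to 7 counts per mouse and at most 0.402 CPM, with the 4 groups overlapping.

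The genotypes were then compared at each age. At 3 mo 0 of 7 tested members passed, with 0 at an unadjusted p under 0.05 and 0 by DESeq2, against 0.075% of 13333 genes called. At 19 mo 0 of 8 passed by edgeR, 1 (Cxcl14) had an unadjusted p under 0.05 and 0 passed by DESeq2, against 0.0434% of 13833 genes. With the replicate block 1 member (Cxcl14) and 110 genes passed by edgeR. That fit gave no weight to V338Y mouse 3, as the wild-type group held no mouse of this number. Among the tested members, groups that did not overlap were found for 0 at 3 mo, against 4.71% of genes, and for Cxcl14 alone at 19 mo, against 9.79%. Ccl2, which missed the filter at 3 mo and was not tested, did not overlap there. The V338Y mice had 0.231 to 1.78 CPM of it (2 to 31 counts). The wild-type mice had 0.0912 to 0.199 CPM (1 to 3 counts). For the interaction of age and genotype 0 of 8 members passed by edgeR or DESeq2, and 2 (Cxcl14 and Ccl2) had an unadjusted p under 0.05. The share called was 0% of 14128 genes. Of the 7 members tested at 3 mo, Cxcl13 had the largest difference, with a log2 fold change of -0.99 (SE 0.53, edgeR adjusted p = 0.584), and the remaining 6 lay between -0.43 and 0.75. Ccl2, Ccl5 and Cxcl1 had no fitted value at 3 mo and are outside this ranking. The mean of Ccl2 was 0.708 CPM in V338Y and 0.153 CPM in wild-type mice. At 3 mo Cxcl13 met the count filter only in wild-type mice, and Ccl8, at 0.75, only in V338Y mice. Each thus entered only through the group where it was higher. The comparisons share mice, and the age and genotype values of a member are not independent of each other.

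Receptors and other ligands were counted from lists of the family. Of 19 chemokine receptor genes 4 could be tested in wild-type mice and 0 passed with age by edgeR or DESeq2, with 1 (Cxcr4) at an unadjusted p under 0.05. In V338Y mice 6 were tested and 3 rose, namely Cxcr4, Ccr2 and Ccr3, while 2 of 5 rose without mouse 5 at 19 mo. Cxcr4, the receptor of Cxcl12, was at 2.64, 0.953, 0.993 and 1.5 CPM in V338Y mice at 3 mo and 4.21, 2.62, 3.81 and 7.26 CPM at 19 mo. The highest value was that of mouse 5, and the lowest old mouse was below the highest young one. Its log2 fold change was 1.53 in V338Y mice (SE 0.40, edgeR adjusted p = 0.0118), 1.17 without mouse 5, and 0.63 in wild-type mice (SE 0.23, edgeR adjusted p = 0.0540). Cxcr4 is another gene that the study displayed. Ccr2, the receptor of Ccl2, rose in V338Y mice by a log2 fold change of 0.69 (SE 0.23, edgeR adjusted p = 0.0333), a call that held in 2 of 8 fits with a mouse left out, those without V338Y mouse 1 at 3 mo or 3 at 19 mo, and was lost without any other mouse.

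A list of 7 genes held the atypical receptors Ackr1 to Ackr4, the related Ccrl2, the protease Dpp4 and Pitpnm3, a phosphatidylinositol transfer protein reported to bind a chemokine, and all were tested. Ackr3, which takes up Cxcl12 without signaling through G proteins, was at 15.6 to 19.4 CPM in wild-type and 18.1 to 21.9 CPM in V338Y mice at 3 mo. At 19 mo it was at 15.8 to 21 and 11.7 to 23.1 CPM, and its log2 fold changes of 0.067 and -0.20 did not pass (edgeR adjusted p = 0.728 and 0.387). Dpp4, a protease that inactivates Cxcl12, had log2 fold changes of 0.22 and 0.19 (edgeR adjusted p = 0.511 and 0.659). Of these 7 genes 2 rose in wild-type mice (Ackr1 and Pitpnm3), and in V338Y mice 1 rose (Pitpnm3) and 1 fell (Ccrl2). The Ackr1 call was kept in 2 of 7 fits and the Pitpnm3 call in V338Y mice in 6 of 8 fits with a mouse left out. It was lost for Ackr1 without wild-type mouse 1, 3 or 4 at 3 mo, or 4 or 5 at 19 mo, and for Pitpnm3 without V338Y mouse 2 of either age.

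**Figure D4:**
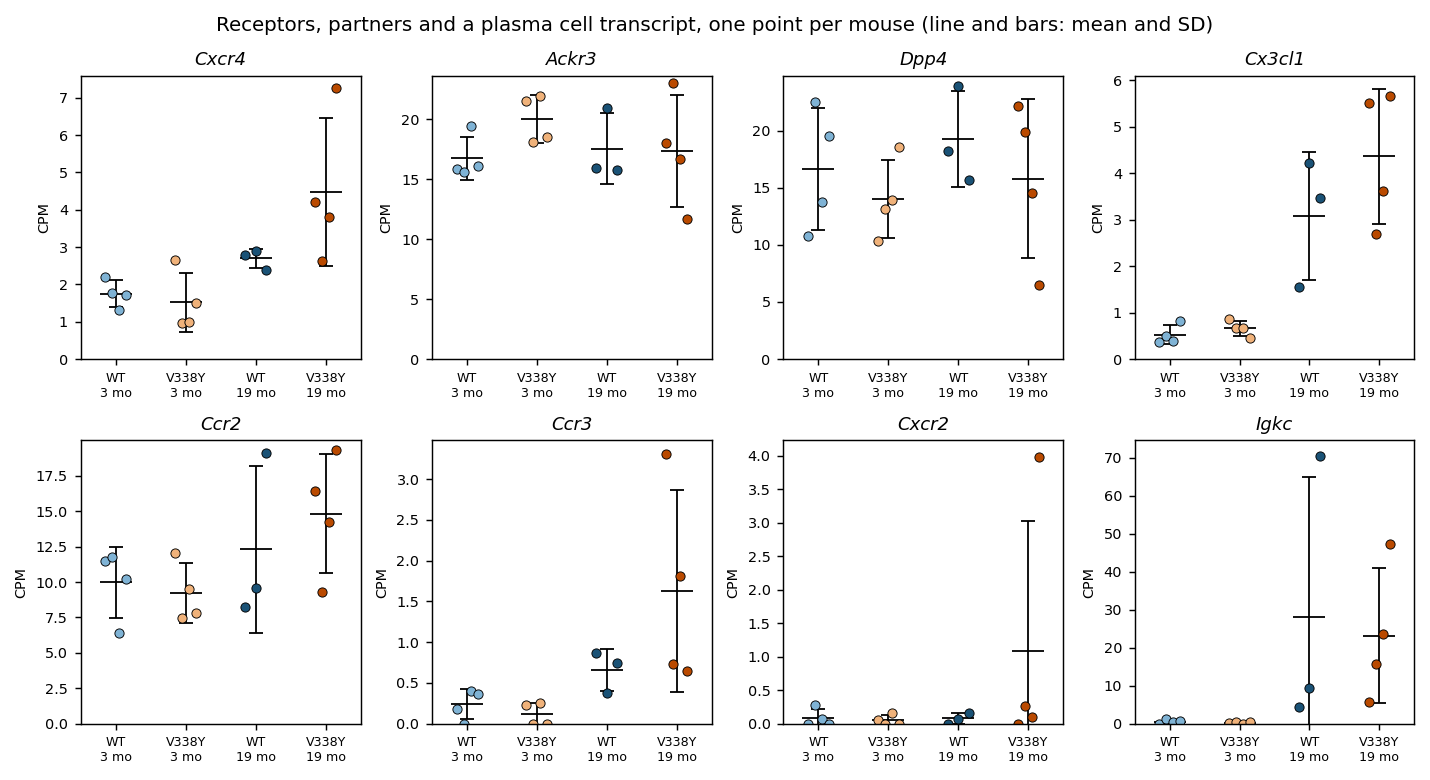
CPM of chemokine receptors (Cxcr4, Ccr2, Ccr3, Cxcr2), of Ackr3, Dpp4 and the ligand Cx3cl1, and of the kappa light chain Igkc in each mouse (points) of the 4 groups, with mean (line) and SD (bars, cut at 0). Cx3cl1 lies at 1.55 CPM or more in all 7 mice at 19 mo and at most at 0.862 CPM in all 8 at 3 mo, and the single high Cxcr2 point, 3.99 CPM, is V338Y mouse 5.

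Of 30 further ligand genes, 6 were at 0 in all mice, 8 could be tested for age in wild-type and 10 in V338Y mice. Cx3cl1, the membrane-bound fractalkine of endothelium and neurons, was the one ligand that rose in both genotypes outside the 10 members. It was at 0.365, 0.497, 0.398 and 0.816 CPM in wild-type mice at 3 mo and 1.55, 4.22 and 3.47 CPM at 19 mo. V338Y mice had 0.461 to 0.862 CPM at 3 mo and 2.68 to 5.66 CPM at 19 mo, so the ages did not overlap. It met the count filter only through the 19 mo groups, and could enter only by being high there. Its log2 fold changes were 2.56 in wild-type (SE 0.42, edgeR adjusted p = 0.00206) and 2.67 in V338Y mice (SE 0.32, edgeR adjusted p = 2.69e-04). Ccl24, another eotaxin, rose among the wild-type animals by a log2 fold change of 0.84 (edgeR adjusted p = 0.0446), with the call kept in 2 of 7 fits with a mouse left out (without wild-type mouse 4 at 3 mo or 5 at 19 mo), and with 0.55 as the lowest value, without wild-type mouse 4 at 19 mo. In V338Y mice Pf4, a platelet chemokine, rose by a log2 fold change of 0.54 (edgeR adjusted p = 0.0229) and the epithelial Ccl28 fell by 1.17 on the log2 scale (edgeR adjusted p = 0.0161). The Pf4 call was lost without V338Y mouse 3 or 4 at 3 mo or 2 or 3 at 19 mo, and the Ccl28 call without V338Y mouse 3 at 3 mo.

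Inducers of chemokine genes, a list of 25 cytokines, sensors and NF-kB or STAT factors, gave 6 up and 0 down of 17 tested in wild-type and 7 up and 0 down of 17 in V338Y mice (8 up without mouse 5). Rel, an NF-kB subunit, rose by log2 fold changes of 1.44 and 1.46 in the 2 genotypes (edgeR adjusted p = 5.84e-04 and 4.65e-04). Nfkb2 rose by 1.17 and 1.47 (edgeR adjusted p = 0.00477 and 0.00107) and the endotoxin receptor Tlr4 by 0.97 and 0.99 (edgeR adjusted p = 0.00427 and 0.00439). Several of these genes are among those the study displayed on these mice. The list had a median log2 fold change of 0.22 (wild-type) and 0.50 (V338Y), beside 0.019 and 0.072 over all genes. Of 18 tested genes that signal from chemokine receptors, 4 rose in wild-type mice (Gng2, Pik3r5, Rac2 and Pik3cg). In V338Y mice 14 of 18 rose, and 12 without mouse 5 at 19 mo, with Dock2, a factor of leukocyte migration, at a log2 fold change of 1.03 (edgeR adjusted p = 3.67e-04). For the interaction 0 genes of either list passed by edgeR or DESeq2, with 0 inducers and 4 signaling genes at an unadjusted p under 0.05, so a difference between the genotypes in these counts was not shown.

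The members also varied between mice of a group. After subtraction of the group means, Ccl6 and Ccl9 had a Pearson r of 0.917 over the 15 mice, the highest of the 28 pairs among the 8 tested members. Reads shared by these related genes were not measured. Their r, and the neighbours they have in common, may thus not rest on separate values. Ccl9 correlated with Ccl2 at r = 0.720, and Cxcl12 with Ccl11 at r = -0.422. Among all 14128 genes, those most like Ccl6 were C1qtnf3, Ccl9, Gpr146, Nlrp1b and C3ar1 (r = 0.922 to 0.873), and those most like Ccl9 were Ccl6, Nlrp1b, Ly86, C3ar1 and Prkag2 (r = 0.917 to 0.885). C3ar1, the receptor of complement C3a, and Nlrp1b thus stood in both lists. For Cxcl12 the nearest genes were Uqcrh, Tie1, Wdr1, Cyc1 and Uqcr10 (r = 0.930 to 0.904), of which Tie1 is an endothelial receptor and 3 encode subunits of respiratory complex III. Cxcl13 was nearest to the immunoglobulin segment Igkv14-126 (r = 0.915), then Prox2os, Igkv4-57, Gm6542 and Rnf111 (down to r = 0.853). Ccl11 was nearest to Rpl17, Rpl39, Gprasp2, Il33 and Rps24 (r = 0.906 to 0.862), and 3 of these encode ribosomal proteins. The nearest genes of Ccl8 were Zfp30, Pik3r3, Slc39a1, Mrpl49 and Sgsh (r = 0.899 to 0.869), and those of Cxcl14 Inip, Dsn1, Afap1l2, Fam117a and Pde9a (r = 0.894 to 0.814). For Ccl2 they were Tmem132a, Unc13b, Trp53i11, Cd48 and Arsa (r = 0.917 to 0.885). These r describe 15 libraries and rest on what differs between mice of a group, depth and tissue composition included.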

How the data were processed

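RNA from quadriceps of 15 mice was sequenced, and mice were grouped by genotype and age from their labels. Per the labels the authors used STAR 2.4.2a and GRCm38, and per the paper RSEM. They deposited 1 table of expected counts per animal, in whole numbers and with no scaling for sequencing depth or transcript length. RSEM splits a read with several matches over the genes concerned. How the estimates became whole numbers is not given in the sources used here, and reads shared by related genes were not measured. The depth was 8250653 to 18968132 counts per mouse, and limits on zero counts cover counting error only.

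The analysis used edgeR 4.0.16 in R 4.3.3. A gene was kept if 50% or more of a compared group reached 10 counts. Libraries were normalized by TMM and compared by the quasi-likelihood test, with Benjamini-Hochberg adjustment over all genes tested and a threshold of 0.05. The interaction was fitted to all 15 mice. CPM are TMM-scaled, and CPM per kb were divided by the summed exon length of a GENCODE annotation of GRCm38. Likeness was Pearson's r of log2(CPM + 0.5). The code was tested on simulated data.

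The members and lists were chosen with earlier results of these data known. All 10 members are named, and from each list up to 5 genes with the smallest adjusted p among those called. Igkc, Ighm, Cxcr2, Ackr3 and Dpp4 were singled out after their values were seen.

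Same-numbered mice at 19 mo had residuals that correlated at r = 0.132 to 0.400 in all 3 pairs. Other pairs ran from -0.407 to 0.467, a range that holds these values. Neither the labels nor the paper state a pairing. The replicate block is given beside genotype results at 19 mo where it changed a call. Between 2 groups, it gave no weight to a mouse whose number the other group lacked. The alternatives were RLE and upper-quartile normalization, DESeq2 1.42.0, 2 other filters, an unadjusted p under 0.005, a fit of all 15 mice, a replicate block by mouse number and leaving out each mouse. The metabolome and quantitative RT-PCR were not analysed here.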

Additional observations from a re-analysis of the deposited data

Results flagged for a closer look

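In 54 sets of values, of 18 chemokine and receptor genes in the 3 groups of 4 mice, each group was screened for a mouse far from the other 3, and 4 were found. Chance alone gives about 1 in 20 groups. Ccl6 was at 22.8 CPM in V338Y mouse 1 at 3 mo, with the next mouse at 13.3 CPM. Ccl8 was at 1.36 CPM in wild-type mouse 4 at 3 mo, with the next at 0.597 CPM. In V338Y mouse 5 at 19 mo, Ppbp, a platelet chemokine, was at 13.6 CPM against 1.81 CPM in the next mouse, and Cxcr2, the neutrophil receptor of Cxcl1, at 3.99 CPM against 0.268 CPM. The same mouse had 164 CPM of the neutrophil transcript S100a8. Cxcl1 was counted at 0.321 CPM in it.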

How the results depend on the processing

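With each mouse left out, 5 members were called with age in every fit of either genotype, and 0 between genotypes or for the interaction. Member counts differed with the replicate block, which called 3 members with age in wild-type mice (Ccl2 and Cxcl13 were lost, edgeR adjusted p = 0.0812 and 0.0864) and 1 by genotype at 19 mo. An unadjusted p under 0.005 also gave 1 member by genotype at 19 mo. With edgeR's own count filter, 7 members were tested with age in wild-type mice, of which 3 rose and 1 fell. In V338Y mice with age the block added Ccl9 and lost Ccl11 (edgeR adjusted p = 0.0344 and 0.0594). The numbers were not found to pair mice for age or at 3 mo, where r was -0.162 to 0.141.

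Signs turned only for differences that had not passed. With the block, log2 fold changes were -0.26 for Ccl6 and -0.13 for Ccl9 with age in wild-type mice, 0.14 for Ccl2 and 0.060 for Ccl11 by genotype at 19 mo, and 0.28 for Cxcl13 in the interaction. The interaction of Ccl9 was 0.021 with upper-quartile normalization and 0.0045 with DESeq2. With a mouse left out, values ranged from -0.050 to 0.38 for Ccl6 with age in wild-type mice and from -0.20 to 0.036 for Cxcl14 with age in V338Y mice. By genotype at 3 mo they ranged from -0.080 to 0.34 for Ccl9, -0.0065 to 0.13 for Ccl11, -0.067 to 0.094 for Cxcl12 and -0.17 to 0.11 for Cxcl14. By genotype at 19 mo the ranges were -0.62 to 0.15 for Ccl2, -0.044 to 0.30 for Ccl9, -0.31 to 0.14 for Ccl11 and -1.66 to 0.22 for Cxcl13. In the interaction they were -0.63 to 0.33 for Ccl8, -0.19 to 0.22 for Ccl9, -0.40 to 0.045 for Ccl11 and -0.70 to 1.18 for Cxcl13. The cause was not tested.

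Over all genes the block gave 2229 calls with age in wild-type mice instead of 4940. By genotype at 3 mo 10 genes passed, 66 with DESeq2 and 33 without a filter. At 19 mo 6 passed, 62 with DESeq2, 14 without a filter and 110 with the block. The interaction gave 0 genes by edgeR (1361 at an unadjusted p under 0.05), 26 with DESeq2, 5 without a filter and 28 with the block. Counts under 10 reads limit Ccl2, Ccl5 and Cxcl1, and 3 or 4 mice a group limit the genotype comparisons.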
